A study of Homo sapiens with 48 samples.

Results

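The 10 genes described here encode enzymes that modify collagen. They are the lysyl oxidase family (LOX, LOXL1, LOXL2, LOXL3 and LOXL4), the lysyl hydroxylases PLOD1 and PLOD2, and the 3 catalytic α subunits of collagen prolyl 4-hydroxylase (P4HA1, P4HA2 and P4HA3). They were taken by symbol from a table of 29744 genes, which held all 10, and all 10 passed the filter on low counts in both arms of the experiment. In the endoplasmic reticulum, prolyl 4-hydroxylase converts proline residues of procollagen to hydroxyproline, which keeps the triple helix stable at body temperature, and lysyl hydroxylases convert lysine to hydroxylysine. After secretion, the copper-dependent lysyl oxidases turn lysine and hydroxylysine into aldehydes that form the covalent cross-links of collagen and elastin fibres. Fibroblasts use both steps when they lay down matrix in wound repair and fibrosis, and P4HA1, P4HA2, PLOD2 and LOX are also known as targets of the hypoxia-inducible factor.

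RNA was sequenced from human fibroblasts given TGFβ together with IL-1β, to learn which genes respond to GLIS3, a zinc finger transcription factor. The cells were an immortalized skin fibroblast line that carries the fluorescent protein mNeonGreen at IL11 and was grown from single-cell-derived reporter clones. In the CRISPRko arm the cells expressed Cas9, with a non-targeting guide RNA in H47_Ctrl and a GLIS3 guide RNA in H47_KO; in the CRISPRa arm they expressed dCas9–VP64, a nuclease-dead Cas9 fused to a transcriptional activator, with a non-targeting guide in VP64_Ctrl and a GLIS3 guide in VP64_A. All 4 groups were drug-selected bulk populations, not clones of the perturbed cells. Each was sequenced at 0 h (no cytokine) and after 6, 12 and 24 h with 10 ng/ml of each cytokine, in a reverse time course collected together, with 3 libraries per condition and 48 in all. The libraries held 2321990 to 10661004 estimated counts each. No label says that the 3 libraries of a condition came from separate cultures. The study's general statement on its in vitro work speaks of independent biological replicates, without saying how these libraries were made, so p-values measure the spread between these samples, part of which may be technical. In bulk RNA, fewer cells of a type and less RNA per cell cannot be told apart.

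In the CRISPRa arm titles and descriptions conflict: each library that its description assigns to VP64_A has a control title, and the reverse holds for VP64_Ctrl. GLIS3 itself was therefore examined first, in normalized CPM (estimated counts relative to the TMM-scaled library size). At 0 h, GLIS3 was at 23.3, 27.4 and 32 CPM in VP64_A, by description, and at 2.65, 1.91 and 2.1 CPM in VP64_Ctrl, a log2 difference of 3.61 (SE 0.24, adjusted p = 1.27e-12, edgeR). The VP64_A libraries were above every VP64_Ctrl library at all 4 times, with log2 differences of 2.86, 2.71 and 3.04 at 6, 12 and 24 h. The level of GLIS3 thus went with the descriptions and against the titles, and the groups are named here by their descriptions. In the CRISPRko arm, GLIS3 was at 2.02, 1.45 and 2.16 CPM in H47_Ctrl and at 0.354, 0.144 and 0.395 CPM in H47_KO at 0 h, a log2 difference of −2.55 (SE 0.56, adjusted p = 0.0355, edgeR). At 6, 12 and 24 h the differences of −1.80, −1.21 and −1.17 did not pass the test (adjusted p = 0.093, 0.51 and 0.38, edgeR). GLIS3 rested on 1 to 45 estimated counts per library in that arm.

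All 8 fibroblast markers were detected, with VIM the most abundant. The keratinocyte markers KRT5, KRT1, EPCAM and CDH1 held at most 2 counts in any library, but KRT14 was higher in VP64_A than in VP64_Ctrl, by a log2 difference of 2.96 at 0 h and 1.6 at 24 h. The summed keratinocyte markers stood at 77.3 ± 11.8 TPM in VP64_A and 19.2 ± 2.91 TPM in VP64_Ctrl at 0 h, and at 19.8 ± 2.15 and 12.6 ± 2.83 TPM at 24 h (SD, n = 3), with KRT14 the most abundant in VP64_A. CNN1, a smooth muscle gene, was also higher in VP64_A at 6 h and 12 h while MYH11 and DES were near 0, with the smooth muscle markers summing to 6.22 ± 2.18 TPM in VP64_A and 1.1 ± 0.367 TPM in VP64_Ctrl at 6 h (SD, n = 3). Of the 4 leukocyte markers CD68 alone passed the filter, and it was lower in VP64_A at 0, 6 and 12 h (log2 differences of −0.81, −0.84 and −0.74); the summed leukocyte markers were at 17.9 ± 2.19 TPM in VP64_A and 40.5 ± 7.27 TPM in VP64_Ctrl at 0 h (SD, n = 3). Of the 8 fibroblast markers, 3 were higher in VP64_A at 0 h, the collagens COL1A1, COL1A2 and COL3A1, and others were lower there at later times: LUM (−1.19) and THY1 (−0.82) at 6 h, LUM (−1.03) at 12 h and DCN (−0.71) at 24 h. Between H47_KO and H47_Ctrl, CD68 was at 0.81 at 0 h and 0.86 at 24 h (adjusted p = 0.055 for each, edgeR), and the summed leukocyte markers were at 33.1 ± 9.1 against 18.7 ± 1.82 TPM at 0 h and 44.3 ± 11.1 against 19.2 ± 3.5 TPM at 24 h (SD, n = 3). The fibroblast marker DCN was called lower in H47_KO at 0 and 6 h (values with the lists below). The summed fibroblast markers were at 21700 ± 2150 TPM in H47_KO and 28000 ± 1460 TPM in H47_Ctrl at 0 h (SD, n = 3). The part of any of these differences in the results below was not tested. In 4 libraries the 50 most abundant genes took a share of the counts more than 7 percentage points below that of the other libraries of the same condition: replicate 1 of H47_Ctrl at 6 h (33.8%), replicate 3 of H47_KO at 0 h (30.7%) and at 24 h (31.4%), and replicate 3 of VP64_Ctrl at 0 h (23.1%), against 32.6 to 46.4% elsewhere. The main results that rest on them are also given without them. Without them CD68 was called higher in H47_KO at 0 h (0.81, adjusted p = 0.0244, edgeR) and 24 h (1.09, adjusted p = 0.00462, edgeR), and LUM lower in VP64_A at 0 h (−0.80, adjusted p = 0.0421, edgeR). Replicates 1 and 2 of VP64_Ctrl at 0 h, at 32.6 and 34.9%, had the lowest shares of the libraries kept. That condition had the lowest mean share of any, 30.2 ± 6.26% (SD, n = 3). Each library was compared only with its own condition, so the fits without the 4 libraries still hold these replicates.

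Coordinates are those of GRCh38 with GENCODE gene models. Of the lysyl oxidase genes, LOX is at chr5:122063195-122078413 on the minus strand, LOXL1 at chr15:73925989-73952137 on the plus strand, LOXL3 at chr2:74532258-74555690 and LOXL4 at chr10:98247690-98268194, both on the minus strand. PLOD1 is at chr1:11934205-11975538 on the plus strand and PLOD2 at chr3:146035139-146163725 on the minus strand. The prolyl 4-hydroxylase genes are all on minus strands, P4HA1 at chr10:73007217-73096974, P4HA2 at chr5:132190147-132295315 and P4HA3 at chr11:74235801-74311640. On the other strand, LOX overlaps SRFBP1, LOXL1 overlaps LOXL1-AS1, LOXL3 overlaps DOK1 and HTRA2, P4HA2 overlaps P4HA2-AS1, PDLIM4 and SLC22A4, and P4HA3 overlaps PPME1. LOXL2, whose position is not given here, overlaps ENTPD4 on the same strand. The strand setting of the counting is not given in the sources used here, so reads from the shared stretches of the pairs on opposite strands cannot be told apart.

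RefSeq promoters (GRCh38.p14) were at hand for 8 of the 10 genes, as 11 start sites; LOXL2 and P4HA3 had none. The 250 bases before the start are shown for PLOD2 and P4HA2, which moved together after cytokine, and for P4HA1 and LOXL3, which were higher in VP64_A at all 4 times, so that the sequence can be read beside the levels. Capitals mark matches to ACGTG or GCGTG (the core of the hypoxia response element), GGAATG (the TEAD motif) and CAGAC (the SMAD motif) on either strand; TGANTCA (the AP-1 motif) was in none of the 11. Over 35116 promoters of the same length, ACGTG was found in 18.5%, GCGTG in 32.2%, TGANTCA in 6.57%, GGAATG in 11.9% and CAGAC in 38%.
PLOD2 (chr3:146161185-146161434, minus strand): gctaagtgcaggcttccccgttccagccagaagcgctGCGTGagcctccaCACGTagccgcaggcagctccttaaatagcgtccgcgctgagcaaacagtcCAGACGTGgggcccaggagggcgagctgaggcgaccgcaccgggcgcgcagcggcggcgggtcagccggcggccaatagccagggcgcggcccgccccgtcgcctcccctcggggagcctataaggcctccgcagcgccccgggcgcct
P4HA2 (chr5:132227092-132227341, minus strand): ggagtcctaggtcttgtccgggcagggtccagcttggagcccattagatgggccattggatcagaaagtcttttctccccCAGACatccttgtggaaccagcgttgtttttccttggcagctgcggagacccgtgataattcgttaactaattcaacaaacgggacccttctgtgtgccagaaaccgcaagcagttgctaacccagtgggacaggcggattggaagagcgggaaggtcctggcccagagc
P4HA1 (chr10:73096867-73097116, minus strand): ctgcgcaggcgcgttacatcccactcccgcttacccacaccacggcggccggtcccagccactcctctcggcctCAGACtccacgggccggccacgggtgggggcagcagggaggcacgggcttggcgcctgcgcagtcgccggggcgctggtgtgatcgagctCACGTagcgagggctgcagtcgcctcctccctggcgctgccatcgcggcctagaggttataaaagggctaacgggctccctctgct
LOXL3 (chr2:74553943-74554192, minus strand): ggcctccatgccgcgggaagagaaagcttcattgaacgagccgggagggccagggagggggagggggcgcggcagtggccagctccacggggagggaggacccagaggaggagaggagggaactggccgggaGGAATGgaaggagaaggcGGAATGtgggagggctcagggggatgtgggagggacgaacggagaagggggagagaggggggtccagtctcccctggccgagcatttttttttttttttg
Each sequence is printed on the strand of its gene. The PLOD2 window held ACGTG on both strands and GCGTG, and the ACGTG on the printed strand overlapped a CAGAC. P4HA1 had ACGTG on the strand opposite the one printed, 86 to 82 bases before the start, and CAGAC. P4HA2 had CAGAC as its only match, and the LOXL3 start shown had GGAATG at 2 places. LOXL3 has a further start, not shown, with GCGTG on the strand opposite the gene, 246 to 242 bases before it. LOX, not shown, had ACGTG at each of its 3 starts, and LOXL4 had no match in a window of 86.4% G and C. A match is a stretch of letters in this window and is not evidence of a bound factor.

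On the TPM scale, which corrects for transcript length, the cross-linking enzyme LOXL2 was the most abundant of the 10 genes at rest, and the hydroxylases P4HA2 and PLOD2 were so after 24 h of cytokine. At 0 h, LOXL2 was at 572 ± 17 TPM in H47_Ctrl, 558 ± 36.1 in H47_KO, 397 ± 14.2 in VP64_Ctrl and 494 ± 58 in VP64_A (SD, n = 3 each). Its libraries were above those of every other member in each group. In H47_Ctrl the order then ran P4HA2 (248 ± 30.3 TPM), PLOD2 (210 ± 23.1), PLOD1 (194 ± 19.1), LOX (179 ± 24.2), LOXL3 (137 ± 32.6) and P4HA1 (112 ± 16.2), in which each neighbouring pair overlapped. LOXL4 (40.1 ± 6.51 TPM), LOXL1 (5.88 ± 1.25) and P4HA3 (1.78 ± 0.697) were lower, each without overlap with the next. VP64_A differed in its order: LOXL3 was second, at 363 ± 27.8 TPM, with no overlap with LOXL2 above or PLOD2 below.

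After 24 h, P4HA2 was highest in H47_Ctrl (662 ± 70.3 TPM), H47_KO (730 ± 89.6 TPM) and VP64_Ctrl (670 ± 34.5 TPM), with no overlap with the next gene, PLOD2. In VP64_A, PLOD2 at 700 ± 53.5 TPM and P4HA2 at 621 ± 41.5 TPM overlapped, and P4HA1 came next at 361 ± 17.5 TPM. LOXL2 was at 325 ± 29.1, 330 ± 56.3, 281 ± 31.6 and 290 ± 35.8 TPM in H47_Ctrl, H47_KO, VP64_Ctrl and VP64_A. LOXL1 and P4HA3 kept the lowest places in all 4 groups.

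**Figure D1:**
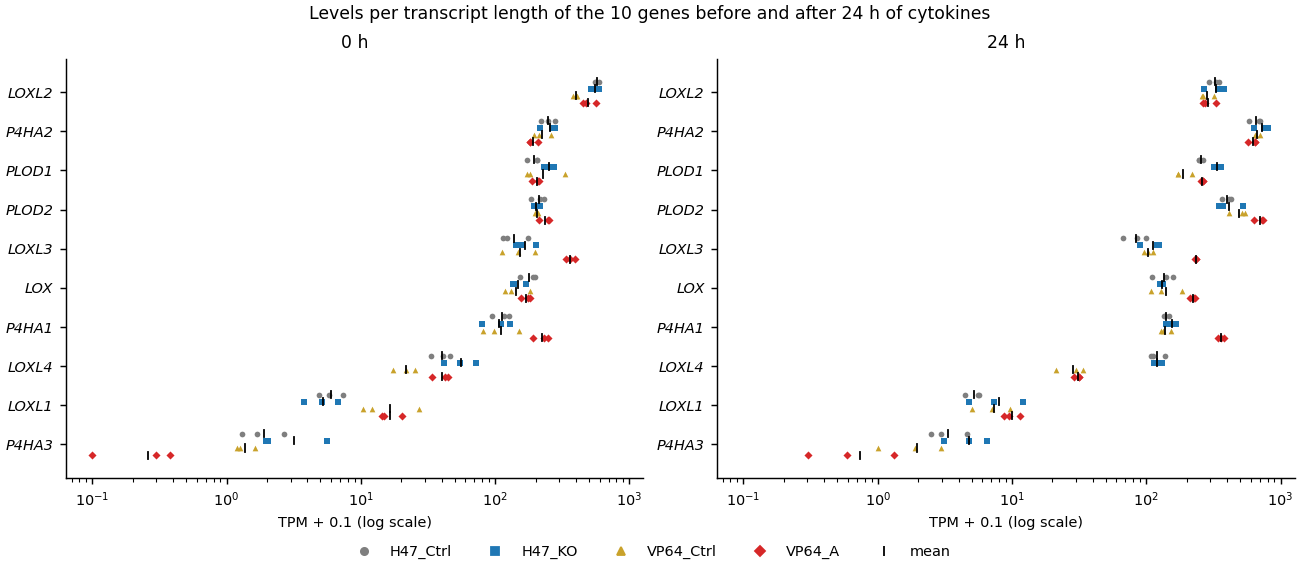
TPM plus 0.1 (log axis) of each of the 10 genes in each library at 0 h and 24 h, with black bars at the mean of 3 libraries. LOXL2 leads at 0 h in the 4 groups, and P4HA2 or PLOD2 at 24 h.

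TGFβ with IL-1β raised the prolyl hydroxylase subunit P4HA2 at every time in all 4 groups of cells, and the lysyl hydroxylase PLOD2 in 10 of 12 comparisons, while most lysyl oxidases moved little or for a short time. On log2(TPM + 1) the P4HA2 call in VP64_A at 6 h was lost (0.37, adjusted p = 0.0572, limma), and with no filter on low values so was that in H47_KO at 6 h (0.41, adjusted p = 0.0599, limma). A gene was called when its adjusted p was under 0.05 (edgeR's quasi-likelihood test, Benjamini-Hochberg over all genes of the arm). In H47_Ctrl, 1, 3 and 4 of the 10 members were called at 6, 12 and 24 h against 0 h, when 15.9, 19.6 and 10.3% of all genes tested were. In H47_KO, 3, 2 and 5 were called, against 23.9, 27.4 and 15.8%. VP64_Ctrl had 5, 4 and 5, against 28.8, 26.8 and 16% (10.2% at 24 h without replicate 1 of that time), and VP64_A had 2, 4 and 5, against 17.4, 19.7 and 13.6%. The members' share was on both sides of that of all genes at 6 and 12 h, and above it in each group at 24 h. Libraries of the 2 times did not overlap for 2, 3 and 7 members in H47_Ctrl at 6, 12 and 24 h, against 31.5, 39.2 and 29.5% of all genes, and for 3, 4 and 4 in H47_KO, against 40, 41.7 and 26.4%. The counts were 8, 5 and 4 in VP64_Ctrl, against 40.9, 39.9 and 30%, and 4, 5 and 8 in VP64_A, against 35, 32.7 and 33.7%. The members' median log2 change at 24 h was 0.58, 0.44, 0.57 and 0.68 in the same order of groups, when that of all genes tested was at most 0.02 from 0. On log2(TPM + 1) it was 0.36, 0.52, 0.12 and 0.37, when that of all genes was −0.16, 0.13, −0.32 and −0.22. Markers of other cell types moved over the same time. The leukocyte marker CD68 was higher at 24 h than at 0 h in VP64_Ctrl (0.99, and 0.89 without the low-share library) and VP64_A (1.16), and was at 0.26 and 0.31, not called, in H47_Ctrl and H47_KO. The summed leukocyte markers went from 40.5 ± 7.27 to 60.5 ± 8.08 TPM in VP64_Ctrl and from 17.9 ± 2.19 to 31.6 ± 4.47 TPM in VP64_A (SD, n = 3). CD68 was the most abundant of them in both groups, at means of 41.7 and 22 TPM over all times, so these sums largely repeat its change. KRT14 was lower at 24 h in VP64_A (−1.81), where the summed keratinocyte markers went from 77.3 ± 11.8 to 19.8 ± 2.15 TPM (SD, n = 3). CNN1 in H47_KO was at 1.25 and not called, and at 3.18 and called without the libraries of low share. It held at most 10 counts in any H47_KO library. The smooth muscle markers summed to 0.715 ± 0.977 TPM at 0 h and 1.89 ± 1 TPM at 24 h in that group (SD, n = 3). Of the fibroblast markers other than collagens, DCN alone was called at 24 h, higher in H47_KO (1.04) and VP64_Ctrl (0.92); without the libraries of low share LUM was called lower in H47_Ctrl (−0.56). The part of these markers in the members' changes was not tested.

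**Figure D2:**
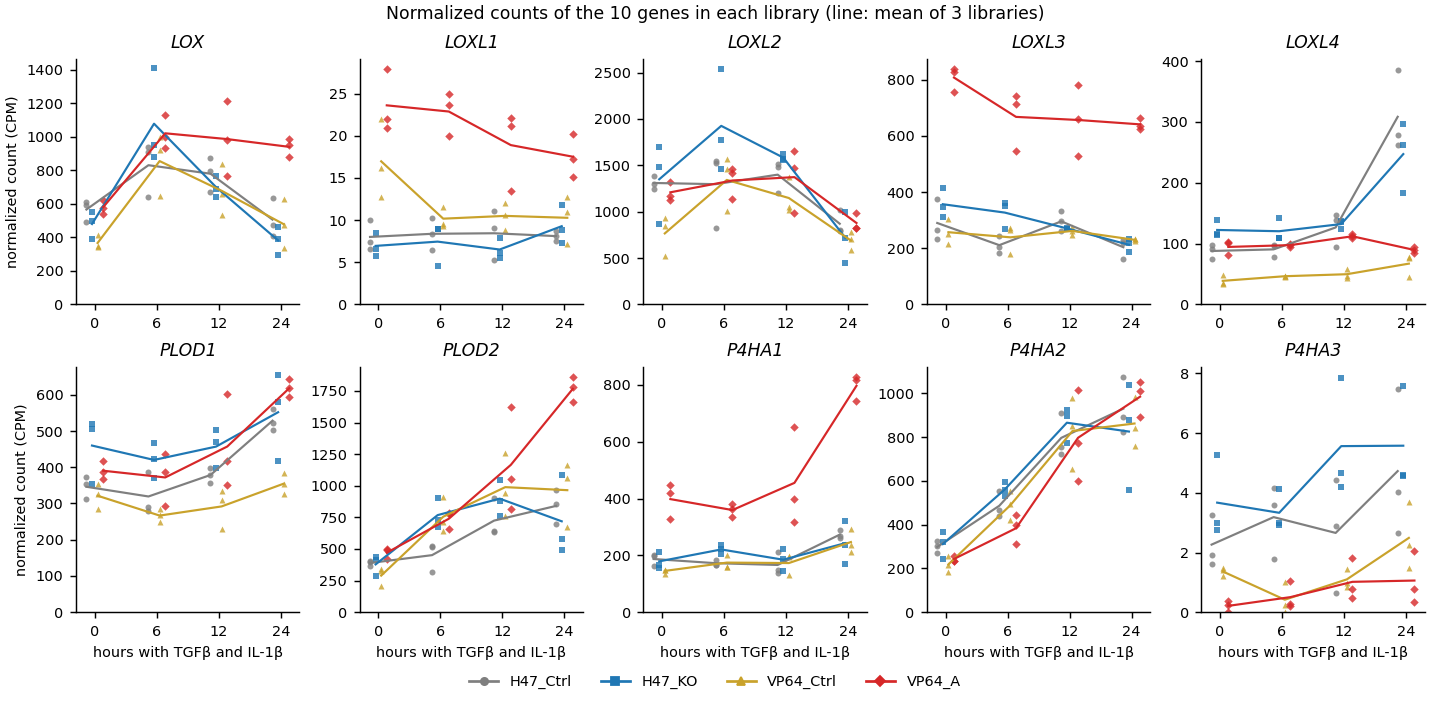
Normalized CPM of each of the 10 genes by hours with TGFβ and IL-1β, with a point for each library, a line through the mean of 3 libraries and linear axes that start at 0. P4HA2 is higher after cytokine than at 0 h in all 4 groups, and LOXL3, LOXL4 and P4HA1 run higher in VP64_A than in VP64_Ctrl.

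LOX, the founding lysyl oxidase, had its highest mean at 6 h in all 4 groups and was not called at 24 h in H47_Ctrl, H47_KO or VP64_Ctrl. In VP64_Ctrl it went from 342, 411 and 346 CPM at 0 h to 644, 919 and 1001 CPM at 6 h, and was at 471, 630 and 335 CPM at 24 h. The 6 h libraries were above those at 0 h (log2 change 1.22, SE 0.22, adjusted p = 9.75e-05, edgeR), and those at 24 h overlapped them. The 6 h change was 0.45 on log2(TPM + 1) (adjusted p = 0.0318, limma), and with no filter on low values it was not called (adjusted p = 0.0542, limma). In H47_KO it rose by a log2 change of 1.17 at 6 h (SE 0.23, adjusted p = 0.00023, edgeR; 0.69 and called on log2(TPM + 1)) and was at −0.33 at 24 h. In H47_Ctrl the 6 h value of 0.55 had an adjusted p of 0.098 (edgeR); without replicate 1 at 6 h, the library with a low share of abundant genes, it was 0.73 and passed the test. In VP64_A, LOX stayed higher: 621, 578 and 540 CPM at 0 h and 988, 951 and 880 CPM at 24 h, a log2 change of 0.70 (SE 0.22, adjusted p = 0.031, edgeR). Those libraries did not overlap, but the call was lost on leaving out any 1 of the 6 libraries, at values of 0.63 to 0.75. Its VP64_A call at 12 h (0.76) was lost without replicate 3 at 0 h (0.70) or replicate 1 at 12 h (0.59). On log2(TPM + 1) LOX was not called in VP64_A at 12 h (0.43, adjusted p = 0.111, limma) or 24 h (0.38, adjusted p = 0.185, limma).

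LOXL4, a lysyl oxidase of the same branch as LOXL2 and LOXL3, rose late. In H47_Ctrl it was at 97.6, 90.6 and 75.4 CPM at 0 h and at 278, 386 and 262 CPM at 24 h, a log2 change of 1.80 (SE 0.19, adjusted p = 1.34e-08, edgeR), the largest change of any of the 10 genes in that arm. Its 12 h call there (0.52, adjusted p = 0.0496, edgeR) was lost without any 1 library but replicate 1 at 12 h (0.41 to 0.6). H47_KO went from 114, 138 and 115 to 296, 262 and 184 CPM (log2 change 1.01, SE 0.19, adjusted p = 0.000148, edgeR). In neither group did the libraries of the 2 times overlap. VP64_Ctrl went from 35.2, 47.6 and 33.7 to 76.7, 78.7 and 45.9 CPM (log2 change 0.77, SE 0.17, adjusted p = 0.00136, edgeR), where the lowest library at 24 h fell inside the range at 0 h. On log2(TPM + 1) the VP64_Ctrl value was 0.37 and not called (adjusted p = 0.233, limma). In VP64_A it was at 101, 102 and 80.9 CPM at 0 h and 94.8, 89.9 and 83.9 CPM at 24 h, a log2 value of −0.08 that did not pass. The test of the difference between the groups' changes gave −0.86 (SE 0.24, adjusted p = 0.19, edgeR) in the CRISPRa arm and −0.79 (SE 0.26, adjusted p = 0.84, edgeR) in the CRISPRko arm, and so did not pass in either; without replicate 3 of VP64_Ctrl at 24 h the first was −1.07 and passed.

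The remaining lysyl oxidases changed less. LOXL2 was called higher at 6 h in VP64_Ctrl, at 0.81 (SE 0.23, adjusted p = 0.00843, edgeR), and lower at 24 h in H47_KO, at −0.91 (SE 0.28, adjusted p = 0.0232, edgeR). In the latter its libraries ran from 1696, 1486 and 865 to 995, 716 and 445 CPM and overlapped. Without the libraries of low share the first value was 0.57 and did not pass, and the second did. The first was 0.077 (adjusted p = 0.615, limma) on log2(TPM + 1), and 0.82 and not called in a fit of those conditions alone. The H47_KO call was lost without replicate 1 or 2 at 0 h, or replicate 2 or 3 at 24 h (−0.88 to −0.65). The 24 h value of LOXL2 was also negative in H47_Ctrl (−0.59), VP64_Ctrl (−0.15) and VP64_A (−0.46), none past the test. On log2(TPM + 1) LOXL2 was called lower in each of these groups (−0.82, −0.50 and −0.77 in the same order). In a fit restricted to the 2 conditions compared, the H47_Ctrl value was −0.61 (adjusted p = 0.00239, edgeR) and the VP64_A value −0.48 (adjusted p = 0.0094, edgeR), and the H47_Ctrl value also passed without the libraries of low share (−0.59), while the restricted fit lost the H47_KO call (−0.91, adjusted p = 0.177, edgeR). LOXL3 fell at 24 h in H47_KO by 0.75 on the log2 scale (SE 0.19, adjusted p = 0.00434, edgeR), from 415, 345 and 309 to 218, 232 and 188 CPM without overlap. In the fit restricted to those conditions this call was lost (−0.75, adjusted p = 0.0607, edgeR), as it was on log2(TPM + 1). LOXL3 was also negative in H47_Ctrl (−0.51, adjusted p = 0.0849, edgeR), VP64_A (−0.33) and VP64_Ctrl (−0.16) at 24 h. The H47_Ctrl value was called in the restricted fit (−0.53), without the libraries of low share (−0.51), by DESeq2 (−0.52) and without replicate 1 at 0 h (−0.65), and the VP64_A value in the restricted fit (−0.35). On log2(TPM + 1) LOXL3 was called lower in these 3 groups (−0.70, −0.63 and −0.52 in the same order). LOXL1, a lysyl oxidase with a known role in elastin fibres, was called lower in VP64_Ctrl at 6, 12 and 24 h (−0.75, −0.66 and −0.66), but none of these calls held without replicate 3 at 0 h (−0.57, −0.47 and −0.46). Other libraries of the later times also ended them, replicates 1 and 2 at 6 h, 1 and 3 at 12 h, and 1 and 2 at 24 h, as did replicate 2 at 0 h for the last (−0.71 to −0.52).

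PLOD2, whose product hydroxylates the telopeptide lysines of collagen, rose in all 4 groups. In H47_Ctrl it was at 404, 397 and 366 CPM at 0 h, 633, 639 and 901 at 12 h and 854, 968 and 701 at 24 h. In VP64_Ctrl it was at 324, 340 and 204 CPM at 0 h, 714, 638 and 914 at 6 h and 1166, 1058 and 671 at 24 h. VP64_A went from 490, 423 and 498 CPM at 0 h to 1858, 1659 and 1784 at 24 h, the highest level of PLOD2 in any condition. None of these later libraries overlapped those at 0 h of their group. The log2 change at 24 h was 1.11 (SE 0.25, adjusted p = 0.00269) in H47_Ctrl, 0.93 (SE 0.25, adjusted p = 0.00934) in H47_KO, 1.74 (SE 0.25, adjusted p = 3.6e-06) in VP64_Ctrl and 1.91 (SE 0.25, adjusted p = 7.24e-07) in VP64_A, all from edgeR. In H47_KO the 24 h libraries were spread, at 1084, 578 and 494 CPM, and the value was 0.50 and not called without replicate 1, or 0.77 without replicate 3 at 0 h; the restricted fit did not call it either (0.92, adjusted p = 0.107, edgeR). The 12 h call in H47_Ctrl (0.90) was lost without replicate 3 (0.72). At 6 h PLOD2 was not called in H47_Ctrl (0.21) or VP64_A (0.65). PLOD1, the lysyl hydroxylase of the helical part, rose at 24 h in H47_Ctrl (0.61, SE 0.19, adjusted p = 0.0359, edgeR) and VP64_A (0.66, SE 0.19, adjusted p = 0.0155, edgeR); the former call was lost on leaving out any 1 library (0.54 to 0.67) and the latter without replicate 1 at 0 h (0.62) or at 24 h (0.63). Neither was called on log2(TPM + 1), at 0.39 (adjusted p = 0.135, limma) and 0.36 (adjusted p = 0.227, limma).

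The mean of P4HA2 rose at each step in H47_Ctrl and VP64_A. In H47_KO it was at 866 CPM at 12 h and 826 CPM at 24 h, and in VP64_Ctrl at 828 and 862 CPM. In H47_Ctrl it was at 323, 303 and 268 CPM at 0 h, 439, 467 and 553 at 6 h, 724, 756 and 910 at 12 h and 823, 1077 and 891 at 24 h. In VP64_A it was at 236, 258 and 236 CPM at 0 h, 311, 398 and 443 at 6 h, 775, 601 and 1016 at 12 h and 1052, 893 and 1010 at 24 h. No library after cytokine overlapped those at 0 h in either group. The log2 change at 24 h was 1.64 (SE 0.21, adjusted p = 8.53e-07) in H47_Ctrl, 1.41 (SE 0.21, adjusted p = 8.31e-06) in H47_KO, 1.98 (SE 0.21, adjusted p = 7.81e-09) in VP64_Ctrl and 2.02 (SE 0.21, adjusted p = 5.55e-09) in VP64_A, by edgeR. The 6 h call in H47_Ctrl (0.70) was lost without replicate 2 or 3 at 0 h or replicate 3 at 6 h (0.62 to 0.71), and that in VP64_A (0.66) without replicate 1 or 3 at 0 h or replicate 2 or 3 at 6 h (0.54 to 0.64). P4HA1, the more widely expressed subunit, rose later and less. It was called only at 24 h and only in the CRISPRa arm, at 0.77 (SE 0.21, adjusted p = 0.00978, edgeR) in VP64_Ctrl and 1.00 (SE 0.21, adjusted p = 0.000712, edgeR) in VP64_A. In H47_Ctrl it was 0.54 and in H47_KO 0.44, not called; without the libraries of low share they were 0.54 and 0.58 and passed. The VP64_Ctrl call was lost without replicate 2 at 0 h (0.70) or replicate 1 at 24 h (0.62). It was also lost on log2(TPM + 1) (0.37, adjusted p = 0.168, limma). On that scale P4HA1 was called lower in VP64_Ctrl at 6 h (−0.49, adjusted p = 0.03, limma).

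P4HA3 was scarce. It held 2 to 25 estimated counts per library in H47_Ctrl, 6 to 59 in H47_KO, 0 to 29 in VP64_Ctrl and 0 to 15 in VP64_A. The 1 call among the cytokine comparisons, VP64_A at 12 h, rested on 2, 15 and 2 counts against 3, 3 and 0 at 0 h. The summed counts per total differed 4.7 times (95% exact interval 1.8 to 14.4, for counting error only), and the call was lost in 5 of the 6 fits that left out 1 library, down to 1.27 without replicate 2 at 12 h.

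**Figure D3:**
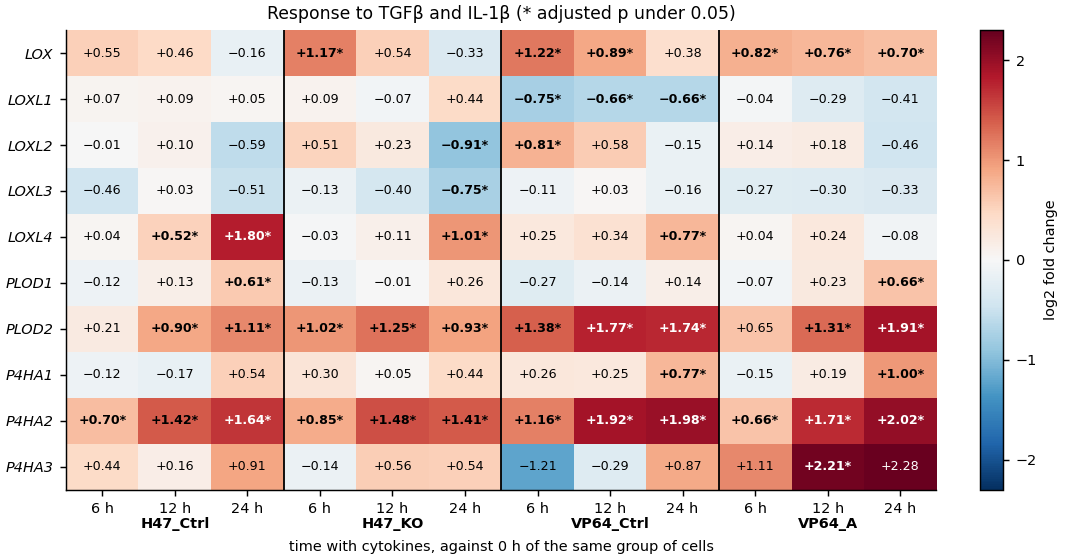
Log2 fold change of each of the 10 genes at 6, 12 and 24 h against 0 h in each group of cells, as colour and number, with an asterisk where the adjusted p was under 0.05 (edgeR). P4HA2 carries an asterisk in all 12 columns and PLOD2 in 10 of 12.

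No member was called between H47_KO and H47_Ctrl at 0, 6, 12 or 24 h, when 0.301, 0.319, 0.0821 and 0.21% of all genes tested were. These shares moved with single libraries, from 0.0179% without replicate 1 of H47_Ctrl at 0 h to 0.929% without replicate 1 of H47_KO at 24 h. At an unadjusted p under 0.05 there were 2, 5, 1 and 0 members at these times. The share of all genes at that threshold is not given here, so nothing is read from these counts. The libraries of the 2 groups did not overlap for 1, 4, 1 and 0 members, against 17.8, 14.9, 15.2 and 13.5% of all genes. The largest values among the well-expressed members were at 6 h. PLOD2 was at 317, 520 and 516 CPM in H47_Ctrl and 727, 900 and 676 CPM in H47_KO, a log2 value of 0.77 (SE 0.25, adjusted p = 0.2, edgeR). LOXL3 was at 184, 204 and 244 CPM in H47_Ctrl and 350, 360 and 270 CPM in H47_KO, a log2 value of 0.63 (SE 0.19, adjusted p = 0.14, edgeR). For both genes every H47_KO library was above every H47_Ctrl library, and DESeq2 called both (0.79 and 0.65). Without the libraries of low share, among them the H47_Ctrl replicate with the lowest value of both genes, PLOD2 was at 0.55 (adjusted p = 0.37, edgeR) and LOXL3 at 0.53 (adjusted p = 0.32, edgeR). The members' median log2 value was 0.05, 0.39, 0.14 and −0.17 at the 4 times, and 0.21, 0.30, 0.14 and 0.0096 without the libraries of low share. On log2(TPM + 1) it was −0.0036, −0.0091, 0.029 and 0.14, when that of all genes was 0.01, −0.32, −0.081 and 0.30. In an average over the 4 times, added after seeing the data, no member was called either (3.07% of all genes were), and PLOD1 came nearest at 0.28 (SE 0.10, adjusted p = 0.11, edgeR). None of the 10 passed the test of a different cytokine response in H47_KO, which 0.00912, 0 and 0% of all genes passed at 6, 12 and 24 h. On simulated data for this comparison at 24 h, edgeR recovered 51.1% of genes given a log2 change of 1 and 99% of those given 2. A change of the smaller size was thus often not called there with 3 libraries a group. The simulation gave every gene the same spread, had no deviating library and changed more genes than were called at 24 h. Its shares therefore do not carry over to the real libraries.

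In the CRISPRa arm, LOXL3, P4HA1 and LOXL4 were higher in VP64_A than in VP64_Ctrl before any cytokine and for most or all of the time course, LOXL1 at 6 and 12 h, and LOX, PLOD1 and PLOD2 by 24 h. P4HA2 did not follow. LOXL3 and P4HA1 kept their calls at all 4 times on log2(TPM + 1), LOXL4 at 0, 6 and 12 h and LOX at 24 h, while LOXL1, PLOD1 and PLOD2 were called at no time. At 0, 6, 12 and 24 h, 4, 4, 5 and 5 of the 10 were called, against 9.41, 3.76, 4.31 and 4.13% of all genes tested, and all but P4HA3 at 0 h were higher in VP64_A, as were 4.29, 1.86, 2.37 and 1.99% of all genes. The 0 h share of all genes fell from 9.41% to 4.41% without replicate 3 of VP64_Ctrl, and to 5.41 and 5.93% without replicate 1 or 3 of VP64_A. The libraries did not overlap for 8, 5, 5 and 8 members, against 26.6, 18.5, 16.9 and 23.4% of all genes. The members' median log2 difference was 0.66, 0.37, 0.59 and 0.77, and that of all genes tested at most 0.02 from 0. On log2(TPM + 1) it was 0.24, 0.47, 0.51 and 0.46, when that of all genes was −0.33, 0.10, −0.05 and −0.25. The comparisons at 24 h and the cytokine responses share libraries, so their values are given side by side and are not independent of each other.

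LOXL3, a lysyl oxidase of the collagen matrix, had the largest difference of the lysyl oxidases. It was at 215, 305 and 252 CPM in VP64_Ctrl and 756, 839 and 826 CPM in VP64_A at 0 h, and at 232, 231 and 227 against 664, 622 and 635 CPM at 24 h. At all 4 times the lowest VP64_A library was above the highest VP64_Ctrl library. The log2 difference was 1.65 (SE 0.19, adjusted p = 2.35e-07) at 0 h, 1.49 at 6 h, 1.33 at 12 h and 1.48 (SE 0.19, adjusted p = 2.06e-06) at 24 h (edgeR), and no library left out ended any of these calls. LOXL4 was at 35.2, 47.6 and 33.7 CPM in VP64_Ctrl and 101, 102 and 80.9 CPM in VP64_A at 0 h, a log2 difference of 1.28 (SE 0.17, adjusted p = 2.54e-06, edgeR) without overlap. It was higher by 1.07 at 6 h and 1.18 at 12 h, and at 24 h the value of 0.42 did not pass, while the VP64_A libraries still lay above those of VP64_Ctrl.

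LOXL1 was at 9.6, 9.34 and 11.6 CPM in VP64_Ctrl and 25, 23.7 and 19.9 CPM in VP64_A at 6 h, without overlap (log2 difference 1.2, SE 0.24, adjusted p = 0.00155, edgeR). It was higher by 0.87 at 12 h (adjusted p = 0.0253, edgeR), a call lost without replicate 2 or 3 of VP64_A or replicate 1 or 3 of VP64_Ctrl (0.73 to 0.87), and at 0 h, with 0.49, the groups overlapped. LOX was at 471, 630 and 335 CPM in VP64_Ctrl and 988, 951 and 880 CPM in VP64_A at 24 h, again without overlap. Its log2 difference was 0.97 (SE 0.22, adjusted p = 0.00558, edgeR), and 0.78 and not called without replicate 3 of VP64_Ctrl. At 0 h LOX and LOXL2 each had a value of 0.66, with adjusted p of 0.054 and 0.065 (edgeR). LOXL2 was called by edgeR at no time in this comparison with all libraries; at 0 h it was called by DESeq2 (0.66, adjusted p = 0.0267) and by edgeR without replicate 2 of VP64_Ctrl (0.81, adjusted p = 0.0407), and was at 0.44 without replicate 3.

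P4HA1 was at 150, 136 and 150 CPM in VP64_Ctrl and 446, 329 and 418 CPM in VP64_A at 0 h. At 24 h it was at 293, 236 and 211 against 819, 743 and 829 CPM. There was no overlap at either time, and the 24 h VP64_A libraries were the highest of the 48 for this gene. The log2 difference was 1.45 (SE 0.21, adjusted p = 1.22e-05) at 0 h, 1.05 at 6 h, 1.39 at 12 h and 1.69 (SE 0.21, adjusted p = 1.39e-06) at 24 h (edgeR), and no single library carried any of these calls. P4HA2, the other abundant subunit, was at 215, 255 and 186 CPM in VP64_Ctrl and 236, 258 and 236 CPM in VP64_A at 0 h, with overlap. Over the 4 times its average log2 difference was −0.01 (SE 0.10, adjusted p = 0.95, edgeR), with P4HA1 at 1.40 (SE 0.11, adjusted p = 4.22e-12, edgeR) on the same scale. P4HA3 ran the other way: 17, 18 and 8 counts in VP64_Ctrl and 3, 3 and 0 in VP64_A at 0 h, a ratio of summed counts per total of 7.32 (95% exact interval 3.1 to 21, for counting error only). Its adjusted p was 0.0306 (edgeR), and the call was lost in 5 of the 6 fits that left out 1 library (log2 values of −2.59 to −2.09).

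PLOD1 was at 354, 326 and 383 CPM in VP64_Ctrl and 643, 593 and 618 CPM in VP64_A at 24 h, and PLOD2 at 1166, 1058 and 671 against 1858, 1659 and 1784 CPM. Neither pair of groups overlapped. PLOD1 was higher by a log2 difference of 0.80 (SE 0.19, adjusted p = 0.00841, edgeR) and PLOD2 by 0.87 (SE 0.25, adjusted p = 0.034, edgeR). The PLOD1 call was lost without replicate 2 of VP64_Ctrl (0.74), and the PLOD2 call without any 1 library but replicate 1 of VP64_Ctrl (0.67 to 0.94). PLOD1 was also called at 12 h, at 0.65, and lost that call without replicate 3 of VP64_A (0.40) or replicate 1 (0.70) or 2 (0.49) of VP64_Ctrl. In the average over the 4 times, added after seeing the data, 7 of the 10 members were called, when 18.4% of all genes were (9.15% higher), and all 7 were higher in VP64_A: LOXL3 by 1.49, P4HA1 by 1.40, LOXL4 by 0.99, LOXL1 by 0.82, LOX by 0.61, PLOD1 by 0.55 and PLOD2 by 0.44. No member passed the test of a different cytokine response between VP64_A and VP64_Ctrl, which 0.0911, 0.264 and 0.209% of all genes passed at 6, 12 and 24 h. Without replicate 3 of VP64_Ctrl at 0 h, the library of lowest share, LOXL3 (1.63), P4HA1 (1.48) and LOXL4 (1.19) kept their calls at that time and P4HA3 did not.

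**Figure D4:**
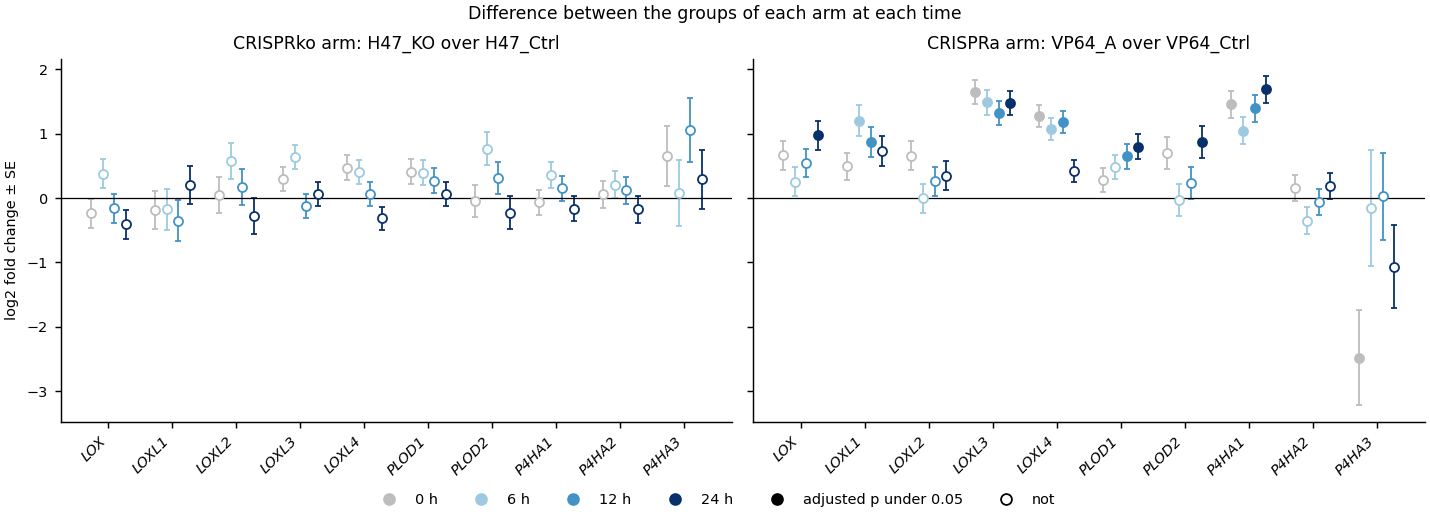
Log2 fold change with its standard error for each of the 10 genes at 0, 6, 12 and 24 h, H47_KO over H47_Ctrl on the left and VP64_A over VP64_Ctrl on the right; filled points have an adjusted p under 0.05 (edgeR). No point is filled on the left, and LOXL3 and P4HA1 are filled at all 4 times on the right.

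Genes that act with these enzymes were examined as lists. The substrates, fibrillar collagens and elastin, were higher in VP64_A than in VP64_Ctrl at 0 h for 6 of 7 tested (median log2 difference 1.54), among them COL11A1 (2.48), COL1A1 (1.98) and COL5A1 (1.81). Without replicate 3 of VP64_Ctrl, the library of low share, 6 of 7 were still called at 0 h, with a median of 1.21. At 24 h 2 of 7 were higher, COL11A1 (1.77) and COL5A1 (1.32). Without the libraries of low share, COL1A1 at 6 h (1.07), COL3A1 at 12 h (1.01) and COL1A2 at 24 h (0.82) were called higher too. COL1A1, COL1A2 and COL3A1 are in the fibroblast marker list too. Of 12 other procollagen enzymes and chaperones of the endoplasmic reticulum, none was higher in VP64_A at any of the 4 times (median −0.08 at 0 h and 0.05 at 24 h). LEPREL1, the earlier symbol of the prolyl 3-hydroxylase P3H2, was lower at 6, 12 and 24 h, by a log2 difference of −1.56 at 24 h (SE 0.25, adjusted p = 7.53e-05, edgeR). Of 7 genes of extracellular processing, none was higher and the procollagen N-proteinase ADAMTS2 was lower at 0 h (−1.05), a call lost without the low-share library (−0.99). In the fit without the libraries of low share, ADAMTS2 (−0.95) and FBLN5 (−0.50), which binds elastin, were lower in VP64_A at 6 h, and FBLN5 (−0.48) at 24 h.

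Known hypoxia-responsive genes that are not members were higher in VP64_A for 8, 3, 7 and 6 of 12 at 0, 6, 12 and 24 h, none lower, with median log2 differences of 1.09, 0.96, 1.21 and 0.95. At 0 h they included the mitophagy receptor BNIP3 (1.68), the pyruvate dehydrogenase kinase PDK1 (1.95), the hexokinase HK2 (1.15) and the oxidoreductase ERO1L (1.18). CA9, carbonic anhydrase 9, had 15 to 19 counts per library in VP64_A and 0 in each VP64_Ctrl library at 0 h, at least 16.6-fold higher against a floor of 3 counts over the group, and the list's median stayed at 1.09 with CA9 at that bound. CA9 held at most 1 count in any VP64_Ctrl library at the 4 times. It is thus among the 12 only through its level in VP64_A, and its direction was set by that filter. Without the low-share library 6 of 12 were higher at 0 h, with a median of 1.12. Of the 8 TGFβ readouts, 2, 1, 1 and 1 were higher at these times, each time including TGFBI (2.34 at 0 h and 1.51 at 24 h). Of the 8 IL-1β readouts, PTGS2 was higher at all 4 times (1.25 at 0 h and 4.04 at 24 h) and CCL2 was lower at 0 and 12 h, and without the libraries of low share also at 6 h (−0.85) and 24 h (−0.85). In that fit LTBP2, a TGFβ readout, was also called higher at 0 h (0.79). The lists and members were chosen with earlier results known, and these counts describe them without a test of the list.

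**Figure D5:**
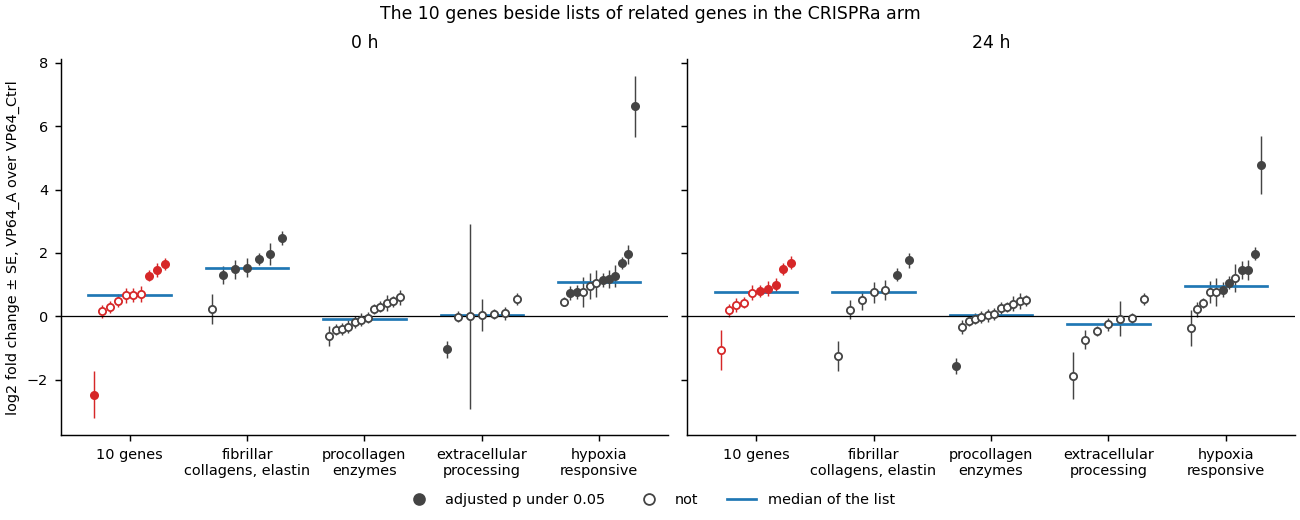
Log2 fold change with its standard error, VP64_A over VP64_Ctrl, of the 10 genes and of the genes of 4 lists at 0 h and 24 h, with a blue bar at each list's median and filled points where the adjusted p was under 0.05 (edgeR). The collagens and the hypoxia-responsive genes lie mostly above 0 at 0 h, with medians of 1.54 and 1.09, and the procollagen enzymes around it, at −0.08; the widest bar belongs to a gene with almost no counts at 0 h.

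After 24 h of cytokine against 0 h, 716 and 994 of 10962 genes tested were called higher in H47_Ctrl and H47_KO. In VP64_Ctrl and VP64_A, 1140 and 988 of 10980 were. The same lists moved as follows. IL-1β readouts rose for 7, 7, 7 and 8 of 8 in H47_Ctrl, H47_KO, VP64_Ctrl and VP64_A, with IL8 (CXCL8) at log2 changes of 10.43, 8.88, 11.13 and 11.07; without the libraries of low share the values in H47_KO and VP64_Ctrl were 10.37 and 10.81. PTGS2, which makes prostaglandin precursors, fell in H47_Ctrl (−2.41) and H47_KO (−2.86) and rose in VP64_A (2.26). CXCL1 and IL6 followed (9.11 and 6.97 in H47_Ctrl), and so did CCL2 (5.29 in H47_Ctrl) and ICAM1 (4.13 in H47_KO). TGFβ readouts rose for 5, 5, 7 and 4 of 8, among them SMAD7 (1.41, 1.84, 1.64 and 2.69), SKIL (1.24, 1.45, 1.73 and 1.12) and CTGF (CCN2; 1.52, 1.23, 2.59 and 1.32), with TGFBI in H47_Ctrl (1.1) and LTBP2 in VP64_A (1.03). Without the low-share library at 0 h, 5 of 8 were called in VP64_Ctrl. Hypoxia-responsive genes rose for 4 and 5 of 11 in the CRISPRko arm and 6 and 5 of 12 in the CRISPRa arm, with BNIP3 (0.80, 1.03, 1.06 and 1.36), SLC2A1, PFKFB4 and HK2 also higher in all 4 groups, KDM3A at 1.46 in H47_KO and 1.23 in VP64_Ctrl, and ADM at 1.84 in VP64_Ctrl and 1.29 in VP64_A. Of the substrates, COL5A1 rose in 3 groups (0.75, 0.80 and 0.80, and 0.31, not called, in VP64_A), and COL11A1 fell in H47_Ctrl (−1.09), H47_KO (−1.03) and VP64_A (−1.35); in VP64_Ctrl it was at −0.64 and not called, and at −0.79 and called without the low-share library. COL27A1 rose in H47_KO (1.26) and VP64_Ctrl (1.9), COL1A1 in VP64_Ctrl (1.53), and COL3A1 fell in VP64_A (−0.92). Of the procollagen enzymes, LEPREL1 rose in all 4 (2.42, 2.58, 4.18 and 3.24), and P4HB, the β subunit that pairs with P4HA1 and P4HA2, was called in VP64_Ctrl (0.86) with all libraries. Without the libraries of low share it was at 0.60 and not called there, and was called in H47_Ctrl (0.68) and VP64_A (0.63). In that fit KDM3A lost its call in VP64_Ctrl (1.01) and was called in H47_Ctrl (0.86), HK2 lost that in VP64_A (0.64), ADAMTS14 was called higher in H47_Ctrl (3.18), PCOLCE lower in VP64_A (−0.60) and the chaperone PPIB lower in H47_KO (−0.59, an adjusted p just under the threshold). LEPRE1 (P3H1) rose in VP64_Ctrl (0.55) and VP64_A (0.6), FKBP10 in VP64_A (0.65) and COLGALT1 in VP64_Ctrl (0.5). BMP1, the protease that cleaves procollagen and activates LOX, rose in all 4 groups (0.75, 0.91, 0.84 and 0.78), FBLN5 in VP64_Ctrl (0.6), and PCOLCE fell in H47_KO (−0.64). Between H47_KO and H47_Ctrl, TGFBI was lower at 0, 6 and 24 h (−1.27, −1.16 and −1.26), the fibroblast marker DCN was lower at 0 and 6 h (−1.82 and −1.60), and no gene of the substrate, enzyme, processing or hypoxia lists was called. Without the libraries of low share, DCN kept both calls and was also called lower at 12 h (−1.0), TGFBI kept those at 0 and 6 h but not at 24 h (−1.14), and the chaperone PPIB was called higher at 0 h (0.71).

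Within the 10 genes, the levels of PLOD2 and P4HA2 went together most closely over the 48 libraries (Pearson r = 0.888 of log2 CPM, each arm centred on its own mean), followed by PLOD1 with P4HA1 (0.771) and LOX with LOXL2 (0.768). The lowest correlation was between LOXL2 and P4HA3 (−0.507). Among 10691 genes kept in both arms, the 3 most correlated with P4HA2 were AKR1B1 (0.956), C19orf66 (0.928) and SLC11A2 (0.925), and to P4HA1 BNIP3 (0.948), PGK1 (0.916) and BNIP3L (0.846). For PLOD2 the highest was PDIA3 (0.907), with PTTG1IP (0.894) in rank 3, and PLOD1 was closest to GPI (0.855), BNIP3 (0.813) and YIF1A (0.809). LOXL2 was closest to CAPN2 (0.907), CTTN (0.906) and EIF4G2 (0.889). GNAI3 (0.885) and EIF4H (0.857) held ranks 2 and 3 for LOX, and LOXL3 was closest to ITGA11 (0.885), CLU (0.87) and FBN1 (0.837). For LOXL4 they were SELM (0.814), DDIT4 (0.799) and AK4 (0.778), for LOXL1 LTBP1 (0.679), CLU (0.674) and PRPS1 (0.67), and for P4HA3 ARHGDIB (0.619), EPG5 (0.602) and YIPF6 (0.602). The libraries share treatments, times and clones, and the values describe them without a test.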

How the data were processed

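The deposited tables hold Salmon's estimated counts per gene and TPM for 48 libraries, prepared per the labels with Nextera XT and sequenced on a NextSeq; the authors used Trim Galore for trimming, SortMeRNA against ribosomal reads, STAR for alignment to GRCh38 and Salmon for quantification (versions not given in the sources used here). The authors' estimated counts, of which 6.38% were not whole, were rounded. The authors' TPM values, corrected for transcript length, served to compare levels between genes. Genes were filtered with filterByExpr (minimum count 10, minimum total 15), leaving 10962 (CRISPRko) and 10980 (CRISPRa) genes, and each arm of 24 libraries was fitted with edgeR 4.0.16 (R 4.3.3), TMM scaling and group means; DESeq2 1.42.0 and limma 3.58.1 served as alternatives. P-values were Benjamini-Hochberg adjusted over all genes of the arm, with a threshold of 0.05. Older symbols were matched to current ones. The 48 pairs of replicates were compared and no pair was identical. On simulated data edgeR recovered 56.6 and 92.6% of genes changed by a log2 of 1 and 2 in VP64_A against VP64_Ctrl at 24 h, with 4% false calls. Every simulated gene had the same spread, and no simulated library deviated from the others. The named genes were the members, GLIS3, the 3 genes most correlated with each member (rank 1 of LOX and rank 2 of PLOD2 are not reported here) and, from each list, genes called at 24 h, up to the 4 largest changes per comparison; the other genes named, including marker genes, ADAMTS2 and list genes at 0 h, were chosen after their values were seen. Members and lists were chosen with earlier results of these data known. GENCODE and RefSeq supplied positions and promoters.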

Additional observations from a re-analysis of the deposited data

How the results depend on the processing

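The 61 member calls and some further values given above, 88 in all, were recomputed with each library left out (468 on the same side of 0.05, 72 lost, 6 gained) and under the other settings (676, 76 and 39). None of these 88 changed sign. Most of them were chosen as calls, so this does not speak for the other member values, of which some changed sign on TPM (below). With DESeq2 the number of members called was 2 in H47_Ctrl at 6 h (1 with edgeR), 2 in H47_KO against H47_Ctrl at 6 h (0) and 7 in VP64_A against VP64_Ctrl at 0 h (4). Of all genes, DESeq2 called 1737 (1744 with edgeR), 169 (35) and 1147 (1033) in these comparisons. With no filter on low counts the number of members in the last was 6, with LOX (0.67) and PLOD2 (0.70) called, and that of all genes 1224. With only the libraries compared the number of members was 7 in H47_Ctrl at 24 h (4), 2 in H47_KO at 24 h (5), where LOXL2, LOXL3 and PLOD2 lost their calls, and 3 in VP64_A against VP64_Ctrl at 12 h (5). Of all genes, 1494 (1125 with all libraries of the arm), 997 (1737) and 373 (473) were called in these, so the total moved the same way. With limma on log2(TPM + 1) or log2(TPM + 0.1) the number of members was 5 in H47_KO at 6 h (3), 8 in VP64_Ctrl at 6 h (5), and 3 in VP64_A against VP64_Ctrl at 12 h (5) and 24 h (5), the last pair also with no filter. Of all genes, 3369 (2625 with edgeR), 6177 (3165), 271 (473) and 395 (453) were called in these on log2(TPM + 1). TPM moved the median log2 value of all genes, to −0.65 in VP64_Ctrl at 6 h (−0.05 with edgeR), −0.43 in H47_KO at 6 h and −0.33 in VP64_A against VP64_Ctrl at 0 h, so values on that scale are to be read against it. Of the members called on log2(TPM + 1), 3 were higher and 5 lower in VP64_Ctrl at 6 h (4 and 1 with edgeR), 2 and 3 at 12 h (3 and 1) and 2 and 3 at 24 h (4 and 1). They were 3 and 2 in H47_KO at 6 h (3 and 0) and in both H47_Ctrl (4 and 0) and VP64_A (5 and 0) at 24 h. All genes turned the same way. In VP64_Ctrl 492 were higher and 5685 lower at 6 h (1777 and 1388 with edgeR), 484 and 4227 at 12 h (1675 and 1263) and 439 and 1567 at 24 h (1140 and 612). They were 513 and 2856 in H47_KO at 6 h (1443 and 1182). At 24 h they were 277 and 360 in H47_Ctrl (716 and 409) and 424 and 735 in VP64_A (988 and 500). Over the 200 member values in the 20 comparisons the sign differed between TPM and edgeR for 44, of which P4HA1 in VP64_Ctrl at 6 h (−0.49, 0.26 with edgeR) and LOXL3 in VP64_Ctrl at 12 h (−0.57, 0.03) were called on TPM. Among calls kept on that scale, those at 6 h were smaller in VP64_Ctrl for LOX (0.45, 1.22 with edgeR), PLOD2 (0.53, 1.38) and P4HA2 (0.40, 1.16), and in H47_KO for LOX (0.69, 1.17), PLOD2 (0.50, 1.02) and P4HA2 (0.41, 0.85). At 12 h in VP64_Ctrl PLOD2 was at 1.00 (1.77) and P4HA2 at 1.28 (1.92), LOXL1 there was lower at 6, 12 and 24 h (−1.31, −1.16 and −1.0), and P4HA3 was at −0.97 in VP64_A against VP64_Ctrl at 0 h (−2.48). In all, 17 of the 61 member calls were lost on log2(TPM + 1) and 17 gained. Those lost were, in VP64_A against VP64_Ctrl, LOXL1 at 6 h (1.14) and 12 h (0.67), PLOD1 at 12 h (0.55) and 24 h (0.49) and PLOD2 at 24 h (0.52); in VP64_Ctrl, LOXL2 at 6 h (0.077), LOX at 12 h (0.24), and LOXL4 (0.37) and P4HA1 (0.37) at 24 h; in VP64_A, P4HA2 at 6 h (0.37), LOX (0.43) and P4HA3 (0.47) at 12 h, and LOX (0.38) and PLOD1 (0.36) at 24 h; and LOXL4 at 12 h (0.31) and PLOD1 at 24 h (0.39) in H47_Ctrl and LOXL3 at 24 h in H47_KO (−0.58). All those gained were lower; LOXL2 was called lower at 24 h in H47_Ctrl (−0.82), VP64_Ctrl (−0.50) and VP64_A (−0.77), and LOXL3 in the same groups (−0.70, −0.52 and −0.63), and the rest were at 6 or 12 h, LOXL3 in H47_KO, VP64_Ctrl and VP64_A, PLOD1 in H47_KO and VP64_Ctrl, and P4HA1 and P4HA3 in VP64_Ctrl. Without the 4 libraries of low share, chosen after seeing the data, the number of members was 2 in H47_Ctrl at 6 h (1), 7 in H47_Ctrl at 24 h (4) and 3 in VP64_Ctrl at 6 h (5). That of all genes was 1775 (1744), 1392 (1125) and 2439 (3165). With 1 library left out at a time the numbers at 6, 12 and 24 h were 0 to 2, 1 to 3 and 3 to 4 in H47_Ctrl; 3, 2 and 4 to 5 in H47_KO; 3 to 5, 3 to 6 and 3 to 5 in VP64_Ctrl; and 1 to 2, 2 to 4 and 3 to 5 in VP64_A. For VP64_A against VP64_Ctrl they were 3 to 4, 4, 3 to 5 and 3 to 5 at 0, 6, 12 and 24 h, for H47_KO against H47_Ctrl 0, and for the differences in response 0, or 0 to 1 in the CRISPRa arm at 24 h. All genes called at 6, 12 and 24 h were 1367 to 1513, 1674 to 1920 and 778 to 882 in H47_Ctrl. They were 1789 to 2320, 2320 to 2523 and 1260 to 1780 in H47_KO. VP64_Ctrl had 2380 to 2887, 2246 to 2695 and 1149 to 1811, and VP64_A 1445 to 1542, 1630 to 1954 and 1094 to 1278. Between VP64_A and VP64_Ctrl they were 491 to 1152, 298 to 338, 321 to 517 and 309 to 366 at 0, 6, 12 and 24 h. Libraries with the same replicate number did not deviate together (mean correlation 0.00652 and 0.0215 in the CRISPRko and CRISPRa arms); with the replicate block the number changed only in VP64_A at 12 h, from 4 to 3, where P4HA3 had an adjusted p of 0.062. P4HA3 and GLIS3 were limited by their counts.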
